A study of Mus musculus with 12 samples.

Results

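Histone genes were followed in mouse liver after valproic acid given alone or together with obeticholic acid. They were the protein-coding rows of the deposited table whose symbol begins with Hist1h to Hist4h, H2af, H3f or H1f, and they numbered 82 of 34986 genes. Of these, 67 carried a Hist symbol, the name then used for the replication-dependent histones of the histone gene clusters, and 15 were replacement histones (H2af, H3f and H1f). The symbols alone chose them, and no measured value was used.

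The study asked about the part of the farnesoid X receptor (FXR) in liver injury by valproic acid. Livers of 16-week-old female C57BL/6 mice were sequenced, 6 libraries from mice given valproic acid (the VPA group) and 6 from mice given valproic acid and obeticholic acid (the VPA_OCA group), with 1 mouse per library by the study's design. All 12 mice therefore had valproic acid, and neither dose, duration nor mice without valproic acid were part of what was analysed here. Valproic acid is an antiepileptic drug that also inhibits histone deacetylases, and obeticholic acid is a synthetic bile acid that activates FXR, the nuclear receptor for bile acids.

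Histones are the proteins around which DNA is wound into nucleosomes: the core histones H2A, H2B, H3 and H4, and the linker histone H1. The replication-dependent genes supply them while DNA is being copied, and their mRNAs are the known exception among animal mRNAs in ending not with a poly(A) tail but with a conserved stem-loop, bound by the protein Slbp. Replacement histones are made throughout the cell cycle, mostly from ordinary polyadenylated mRNAs. In a resting tissue such as adult liver they exchange into chromatin without DNA synthesis.

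The stem-loop is shown first, because it is the known end of replication-dependent histone mRNAs, though it did not fully separate the 2 classes here. The GENCODE M21 transcripts of the 82 genes were searched after the stop codon for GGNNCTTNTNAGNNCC with complementary N pairs in the stem, a 6-base stem on each side of a 4-base loop. The DNA letters of the match are in capitals, with 5 bases on each side, for 6 genes with values given later.
Hist1h1c: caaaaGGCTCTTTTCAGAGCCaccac
Hist2h2aa1: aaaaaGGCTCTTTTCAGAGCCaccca
Hist3h2a: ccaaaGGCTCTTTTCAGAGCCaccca
Hist2h3c2: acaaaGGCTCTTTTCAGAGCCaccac
Hist1h4h: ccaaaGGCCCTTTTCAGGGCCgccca
H2afx: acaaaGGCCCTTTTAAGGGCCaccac
The first 4 share 1 stem-loop, the form found in 26 genes, and the last 2 differ from it within the stem, H2afx also in the loop. The motif followed the stop codon in 46 Hist genes and in H2afx, at a distance of 21 to 58 bases (median 31). Over all protein-coding genes of the table with a long enough annotated tail, 53 of 20897 (0.254%) held it, 47 of them the members just counted. H2afx, the H2A form phosphorylated at DNA breaks, was the only replacement member with a match.

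Sequence also limits what can be measured, since many histone genes are near copies of each other. Each transcript was divided into windows of 50 bases, and a window was called unique where no other gene's transcript held it. In the median Hist gene 50.3% of windows were unique, and in 33 of 67 fewer than 50% were; in the median replacement gene the share was 93.9%, and none was under 50%. Hist2h2aa1 and Hist2h2aa2, identical H2A coding sequences a few kilobases apart, had 10.6% and 0% unique windows, Hist2h3c2 had 36.5%, and the H2B gene Hist2h2be had 100%. Values of genes with low shares depend on how the authors' counting divided shared reads, which is not given in the sources used here, nor is the strand setting.

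A gene was called measurable when 6 or more of the 12 libraries had 1 or more normalized counts for it. Normalized counts are the authors' read counts after scaling for library size, and 1 read was worth about 0.559 to 1.23 of them. By this rule 38 of 82 histone genes were measurable: 28 of 67 Hist genes (41.8%) and 10 of 15 replacement genes (66.7%), against 69.8% of the 22040 protein-coding genes in the table. A further 31 Hist genes had some value above 0 but missed the rule, and 8 were at 0 in all 12 libraries, where a library at 0 allows up to 1.68 to 3.69 normalized counts (3 reads). Those 8 included the testis histones Hist1h2aa and Hist1h2ba. The floor covers counting error only, not reads that could not be assigned. Unique windows among the 8 ran from 0% in Hist2h3c1 to 97.7% in Hist1h2aa.

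Most measurable Hist genes were also close to that floor. The mean normalized count over the 12 libraries was at least 10 for 11 Hist genes, and 17 of the 28 measurable ones were under it. By family, 4 of 6 H1 genes, 5 of 18 H2A, 9 of 18 H2B, 2 of 12 H3 and 8 of 13 H4 genes were measurable. By place, 20 of 54 on chromosome 13, 5 of 10 on chromosome 3, 2 of 2 on chromosome 11 and the gene on chromosome 6 were. Among replacement members the 5 that were not measurable were at 0 in every library: the oocyte H1foo, the spermatid H1fnt and the testis variants H2afb1, H2afb2 and H2afb3. Of the 10 others, 9 had a mean of at least 10, and H1fx, a linker variant, had 1.51.

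The number of measurable Hist genes differed by the annotated end of the transcript, which is given as a description. Normalized counts are not scaled by transcript length, and the tail past the stem-loop is longer by definition in transcripts that run on. For example, Hist1h1d (7425 bases, running on) was measurable at 0.0207 FPKM, while Hist1h4b (397 bases, ending by the stem-loop) was not at 0.153. The part of length in the difference was not tested. Of 22 Hist genes whose annotated transcript ended within 60 bases of the stem-loop, 5 were measurable, and of 24 whose transcript ran on further, 18 were. A mean of at least 10 normalized counts was reached by 3 of the 22 and 6 of the 24, and the 3 included the abundant Hist2h2aa2 (539 counts) and Hist2h2aa1 (508). Of 15 Hist genes whose annotated sequence after the stop codon was too short to hold the motif (0 to 2 bases), 2 were measurable, and of 6 with a longer tail but no match 3 were. Hist1h2bc, the Hist gene with the highest count, belonged to the last set: its transcript has 2 exons and 742 bases after the stop codon, and the motif was not found there. Whether the library kit selected polyadenylated RNA is not given in the sources used here. The share of unique windows went the same way, with a median of 70.5% in measurable and 39.6% in other Hist genes; its part in the count was not tested.

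**Figure D1:**
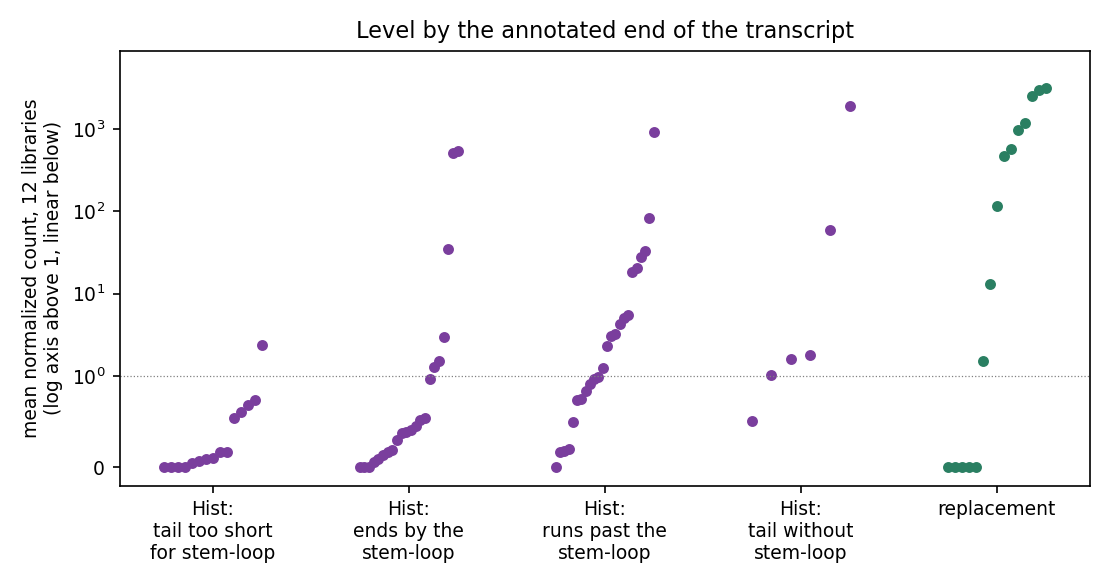
Mean normalized count over the 12 libraries (vertical axis, logarithmic above 1 and linear below) of each of the 82 histone genes, 1 point per gene, in columns by the annotated end of the transcript; the dotted line marks 1. Most Hist genes with too short a tail or ending by the stem-loop lie under the line, while 3 ending there reach a mean of 10, and 8 of the 15 replacement genes lie above 100. Counts are not scaled by transcript length.

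Compared per length, as FPKM (fragments scaled by gene length and library total), the replacement histones were the larger pool. Summed over the 15 genes they stood at 436.5 ± 34.6 FPKM in VPA and 490 ± 68.9 in VPA_OCA (mean ± SD, n = 6 each), and the 67 Hist genes at 201 ± 10.8 and 215 ± 23.0. The Hist share of all histone FPKM was 31.6% ± 2.20 in VPA and 30.6% ± 2.34 in VPA_OCA, and it lay between 27.9% and 34.4% in every library. Both pools are levels as the library captured them, and whether polyadenylated RNA was selected is not given in the sources used here. The groups overlapped in both sums, whose ratios of VPA_OCA to VPA were 1.07 for Hist and 1.12 for replacement. Without VPA_OCA replicates 1 and 2 these ratios were 1.01 and 1.03. In bulk tissue, fewer cells of a type and less RNA per cell cannot be told apart.

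**Figure D2:**
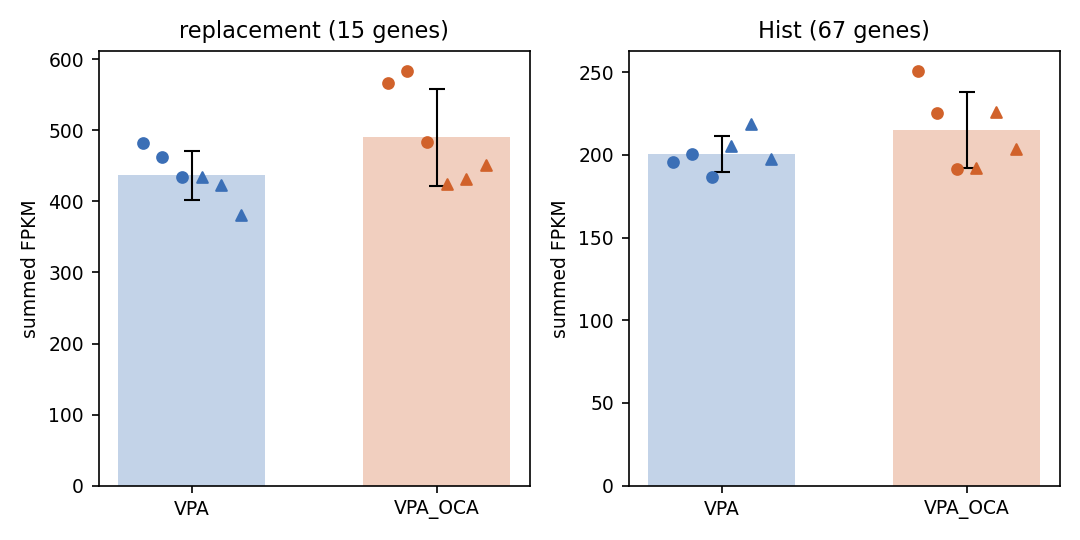
Summed FPKM of the 15 replacement genes (left) and the 67 Hist genes (right) in VPA and VPA_OCA, with a point per library, bars for the mean and lines for ± SD (n = 6); circles are libraries numbered 1 to 3, triangles 4 to 6. The Hist sums run from 187 to 251 and the replacement sums from 381 to 583, with the groups overlapping in both panels.

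The Hist pool rested on 4 genes. Hist1h2bc (76.6 FPKM over the 12 libraries), the H2A pair Hist2h2aa2 (47.8) and Hist2h2aa1 (40.6), and the linker histone gene Hist1h1c (28.0) made up 91.5% to 94.2% of Hist FPKM in each library. After them came Hist1h4h (3.51), Hist1h2bg (2.52), Hist3h2a (1.80), Hist1h4i (1.78) and Hist2h2be (1.08), and no other Hist gene reached a mean FPKM of 1. The 39 genes that were not measurable gave 0.12% to 1.26% of the Hist sum.

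The families were far from equal within the Hist class. The 18 H2A genes summed to 88.4 ± 10.3 FPKM in VPA and 92.8 ± 9.25 in VPA_OCA, and the 18 H2B genes to 80.2 ± 5.27 and 82.6 ± 7.92. The 6 H1 genes gave 24.4 ± 4.69 and 32.0 ± 9.60 FPKM. H4 (13 genes) and H3 (12 genes), the other core histones, were lower, at 6.05 ± 1.09 and 6.57 ± 1.06 for H4 and 1.55 ± 0.406 and 1.02 ± 0.223 for H3. No library had a Hist H3 sum over 2.12 FPKM, while the replacement pair H3f3a and H3f3b, which encode the same H3.3 protein, summed to 188 to 356 FPKM. These are levels of mRNA as the library captured it, not of protein. The H3 genes Hist2h3c1, Hist2h3b and Hist2h3c2 share 100%, 79.7% and 63.5% of their windows with the non-coding transcript Gm20634. Gm20634 had a mean of 108.8 normalized counts, against 23.96 for the Hist H3 sum. The part of shared reads in the low Hist H3 sum was not tested.

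The replacement order was H3f3a (160 FPKM over the 12 libraries), H3f3b (90.4), H2afz (80.6, encoding H2A.Z), the linker histone H1f0 of resting cells (52.3), H2afy (31.5, macroH2A1), H2afv (25.2, the other H2A.Z gene), H2afj (18.6), H2afx (3.97), H2afy2 (0.283, macroH2A2) and H1fx (0.0586). H3f3b and H2afz overlapped in their ranges (72.1 to 128 and 64.0 to 108 FPKM), as did H2afz and Hist1h2bc (67.6 to 86.5). H3.3 made up 49.2% to 61.1% of replacement FPKM.

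**Figure D3:**
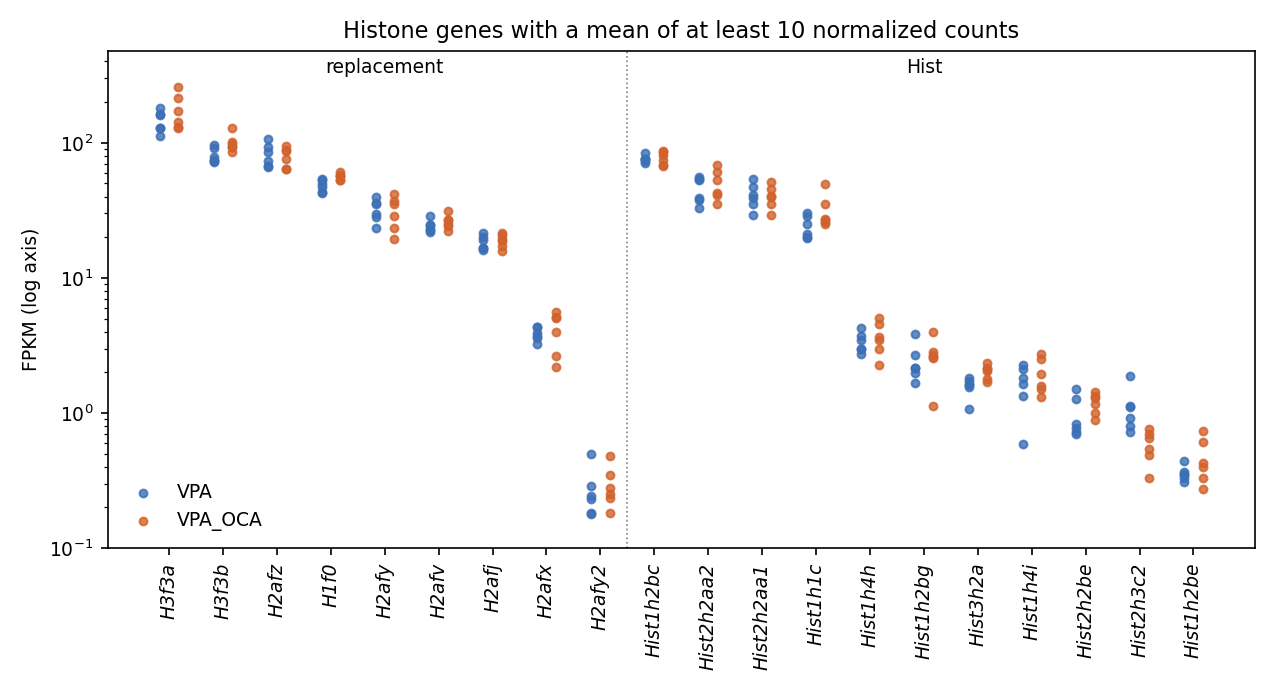
FPKM on a logarithmic axis of the 9 replacement and 11 Hist genes with a mean of at least 10 normalized counts, each group ordered by mean, with 1 point per library (VPA blue, VPA_OCA orange, 6 each). H3f3a leads at 112 to 258 FPKM, and a gap separates the first 4 Hist genes from the others; the groups overlap in every gene on this scale, Hist2h3c2 included (0.718 to 1.89 in VPA, 0.332 to 0.764 in VPA_OCA).

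The main comparison asked whether histone genes differed between VPA_OCA and VPA, read from 1 limma fit over all 19006 genes that passed the filter above. None of the 28 Hist and none of the 10 replacement genes was called at an adjusted p under 0.05, where 137 genes (0.721%) were called over the whole table, 84 higher (0.442%) and 53 lower (0.279%). At an unadjusted p under 0.05 there were 3 Hist genes and 2 replacement genes, 5 of 38, where 1815 genes (9.55%) passed over the whole table. The higher ones were 4 (Hist1h1c, Hist3h2a, H3f3b and H1f0), against 5.3% over the table, and the lower one was Hist2h3c2, against 4.25%. The count of called histone genes was also 0 in each of 26 other settings of the fit, among them a block for the replicate number, which raised the count over the table to 210 (1.1%). In the authors' deposited table an adjusted p is given for 19 of the 82 genes, and the smallest was 0.0514, for Hist2h3c2.

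The medians describe the lists and were not tested. The median log2 fold change was 0.27 in the 28 Hist genes (21 above 0 and 7 below), 0.07 in the 10 replacement genes (8 and 2) and -0.0005 over all genes. Among the 11 Hist genes with a mean of at least 10 it was 0.12, with 9 above 0 and 2 below, and among the 17 lower ones it was 0.27 with a median SE of 0.44. Fold changes are on the log2(normalized count + 1) scale, which understates those of low genes.

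**Figure D4:**
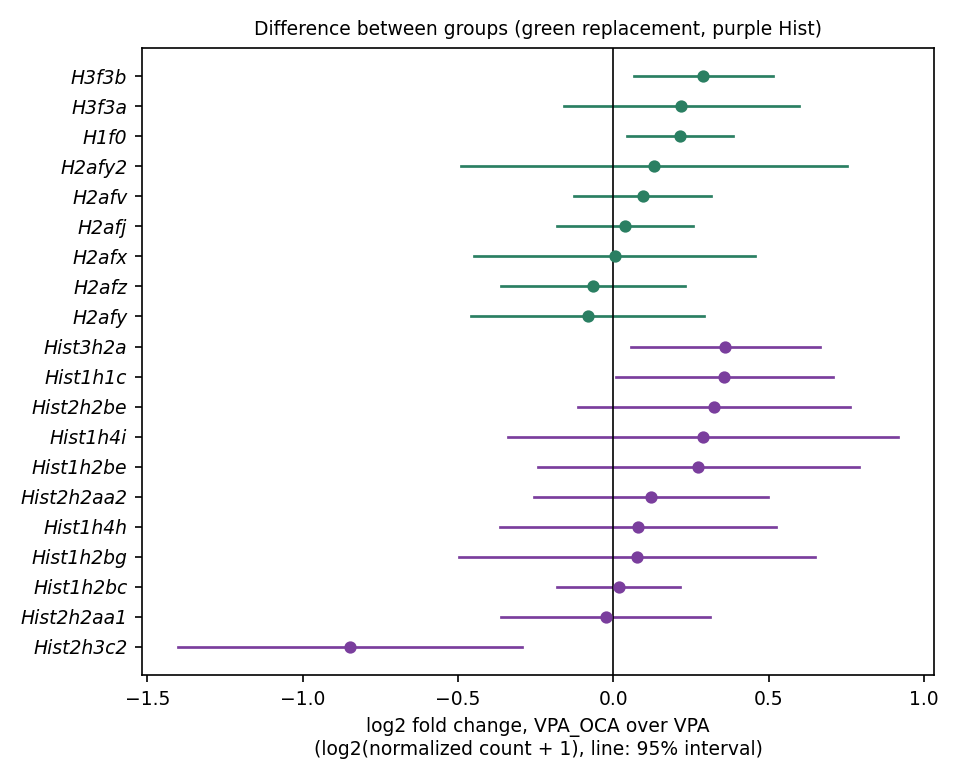
Log2 fold change of VPA_OCA over VPA, on log2(normalized count + 1), with the 95% interval of the limma fit, for the 20 histone genes with a mean of at least 10 (green replacement, purple Hist). Hist2h3c2 lies apart at -0.85, the intervals of 5 genes leave 0 before adjustment, and none of these passed after it.

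Hist2h3c2 (chromosome 3, 96238108 to 96239127, minus strand, GRCm38), an H3 gene, was the histone gene with the smallest p. Its normalized counts in VPA 1 to 6 were 18, 22.8, 16.1, 19.4, 41.2 and 25.3, and in VPA_OCA 1 to 6 they were 14.02, 15.7, 16.0, 10.8, 11.7 and 7.09. All 6 VPA_OCA values lay below all 6 VPA values, narrowly at the closest pair (16.1 and 16.0), and it was the only histone gene whose groups did not overlap, as was true of 274 genes (1.44%) over the whole table, 0.916% with VPA_OCA higher and 0.526% with it lower. In FPKM, which scales the libraries differently, the groups of Hist2h3c2 overlapped (0.718 to 1.89 in VPA and 0.332 to 0.764 in VPA_OCA). The log2 fold change was -0.85 (SE 0.26), a fold of 0.556 with a 95% interval of 0.378 to 0.816, and limma's adjusted p was 0.208. It was -0.29 within the libraries numbered 1 to 3 and -1.41 within 4 to 6. These are low values, and 63.5% of its windows are shared with Gm20634, a non-coding transcript that also covers its copy Hist2h3c1, which is listed at 0 in every library.

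The replacement gene H3f3b had normalized counts of 2422 to 3072 (median 2523) in VPA and of 2839 to 4170 (median 3152) in VPA_OCA. The groups overlapped, with VPA_OCA replicate 1 the highest. Its log2 fold change was 0.29 (SE 0.11), a fold of 1.22, with an adjusted p of 0.332. It was 0.49 within the numbers 1 to 3, 0.09 within 4 to 6 and 0.19 without VPA_OCA replicates 1 and 2. H3f3a, the other H3.3 gene, stood at 2310 to 3742 (median 2831) and 2492 to 5281 (median 3110), with a log2 fold change of 0.22 (SE 0.18, adjusted p 0.786), which was -0.03 without VPA_OCA replicates 1 and 2.

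H1f0, the linker histone of non-dividing cells, had 2201, 2284, 2154, 2539, 2630 and 2388 normalized counts in VPA 1 to 6 and 2926, 2892, 2475, 2630, 2798 and 2721 in VPA_OCA 1 to 6. Only VPA_OCA replicates 3 and 4 lay within the VPA range. The log2 fold change was 0.21 (SE 0.08), a fold of 1.16 with a 95% interval of 1.03 to 1.31, and the adjusted p was 0.359. Within the numbers 1 to 3 the log2 fold change was 0.32 and within 4 to 6 it was 0.11.

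Hist1h1c (chromosome 13, 23738808 to 23740367, plus strand), the linker histone H1.2, had 728, 912, 672, 809, 1014 and 696 normalized counts in VPA 1 to 6. In VPA_OCA 1 to 6 it had 1637, 1215, 864, 925, 861 and 822. VPA_OCA replicates 1 and 2 lay above every VPA library, and the other 4 lay inside the VPA range. The log2 fold change of 0.36 (SE 0.16, adjusted p 0.510) was 0.12 without those 2 libraries, 0.65 within the numbers 1 to 3 and 0.07 within 4 to 6. VPA_OCA replicate 1 was also the deepest library, at an estimated 37766890 reads, against 17879222 to 22021646 in the others, and without it alone the log2 fold change was 0.22.

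Hist3h2a (chromosome 11, 58954685 to 58956830, plus strand), an H2A gene outside the large clusters, had 51.1 to 82.2 normalized counts (median 74.8) in VPA and 79.5 to 111 (median 92.6) in VPA_OCA. The groups met only at the upper end of VPA, and VPA replicate 1 was the lowest library. The log2 fold change was 0.36 (SE 0.14, adjusted p 0.405), with 0.55 within the numbers 1 to 3 and 0.17 within 4 to 6. Its annotated transcript lies within the Trim17 gene on the same strand and shares 31.5% of its windows with it; Trim17 had a mean of 0.611 normalized counts.

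Hist1h2bc (chromosome 13, 23684199 to 23692908, plus strand), the most abundant Hist mRNA, differed little. Its normalized counts ran from 1769 to 2135 (median 1820) in VPA and from 1616 to 2198 (median 1900) in VPA_OCA. The log2 fold change was 0.02 with a 95% interval of -0.18 to 0.21 (adjusted p 0.985), which as a fold is 0.883 to 1.16.

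The copies Hist2h2aa1 (chromosome 3, 96245497 to 96246082, plus strand) and Hist2h2aa2 (chromosome 3, 96239749 to 96240276, minus strand) varied more apart than together. Hist2h2aa1 ran from 344 to 662 normalized counts and Hist2h2aa2 from 361 to 760, with coefficients of variation within groups of 19.9% to 25.6%. Their sum ran from 908 to 1207 counts, with 12.3% in VPA and 9.77% in VPA_OCA. In VPA 4, for example, Hist2h2aa1 had 658 and Hist2h2aa2 361, and in VPA_OCA 1 they had 435 and 760. Summed, their log2 fold change was 0.05 (SE 0.10, adjusted p 0.927), against -0.02 and 0.12 apart. The non-coding transcript Gm20634 (mean 108.8 normalized counts) overlaps Hist2h2aa1 on the same strand. It shares 89.4% of the windows of Hist2h2aa1 and 100% of those of Hist2h2aa2. The sum of the 2 copies therefore also depends on how shared reads were divided.

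**Figure D5:**
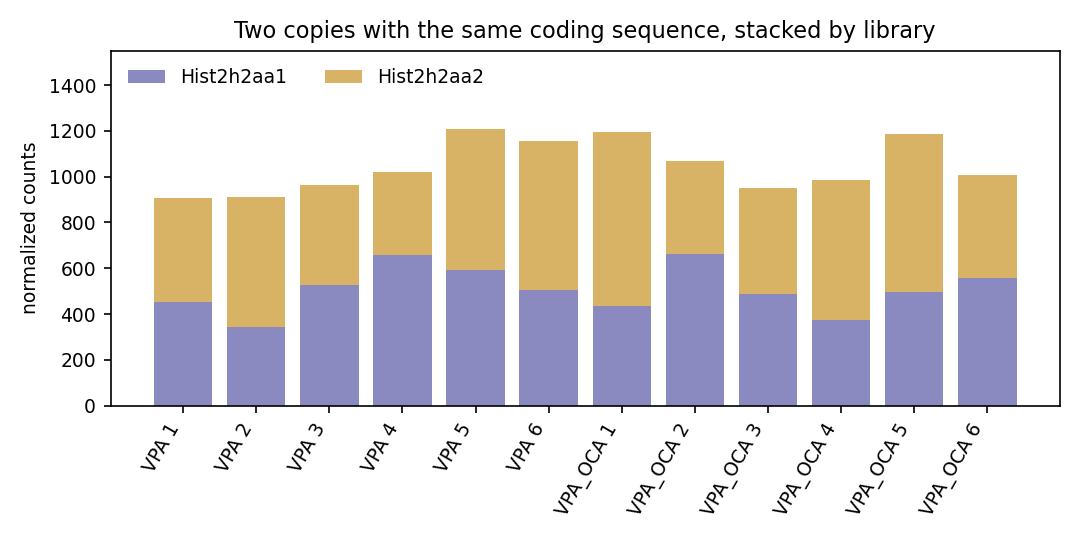
Normalized counts of Hist2h2aa1 (lower part) and Hist2h2aa2 (upper part) stacked for each of the 12 libraries. The total height lies between 908 and 1207, while the boundary inside the bar moves between 344 and 662.

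Of the other replacement genes none approached the threshold. H2afv had a log2 fold change of 0.09 (adjusted p 0.858), H2afj of 0.04 (0.960), H2afy2 of 0.13 (0.952), H2afz of -0.07 (0.946) and H2afy of -0.08 (0.946). H2afx differed by 0.00 (95% interval -0.45 to 0.46), yet its spread was unequal: 99.0 to 132 normalized counts in VPA and 66.6 to 165 in VPA_OCA. H1fx, at 0 to 4.03 counts, had an interval of -0.93 to 0.94, so a difference of nearly 1 log2 unit could not be seen at this depth.

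Some replacement genes were divided by library number and not by group. H3f3a had 3105 to 5281 normalized counts in the 6 libraries numbered 1 to 3 and 2310 to 2917 in the 6 numbered 4 to 6. H2afz had 1215 to 1620 and 934 to 1077, and H2afy went the other way, with 623 to 912 and 1124 to 1284. In these 3 genes of the 38 measurable the number sets did not overlap, within each group as in both together, as was the case in 2018 genes (10.6%) over the whole table, a share no lower than that of the histone genes. The Hist share of histone FPKM was likewise 27.9% to 30.7% in numbers 1 to 3 and 31.1% to 34.4% in 4 to 6. Mitochondrially encoded genes took 9.09% to 11.7% of normalized counts in numbers 1 to 3 and 5.84% to 7.51% in 4 to 6, and their part in these levels was not tested. The labels name no batch for the numbers. With a term for the number set, 404 genes (2.13%) were called over the table and no histone gene, the smallest adjusted p being 0.127 for Hist2h3c2.

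Within the clusters, H2A and H2B genes stand head to head, with start sites a short gap apart. There were 12 such pairs, with gaps of 175 to 305 bases, and 9 of them had both genes under a mean of 10 normalized counts. In the 3 others the H2B gene was the higher in all 12 libraries. Hist1h2bc had a mean of 1891 normalized counts and its neighbour Hist1h2ac 3.03, or 76.6 against 0.0569 FPKM. Hist2h2be had 1.08 and Hist2h2ac 0.0400 FPKM, and Hist1h2bg had 2.52 and Hist1h2ae 0.0616 FPKM. Hist1h2bg shares 45.0% of its windows with the far more abundant Hist1h2bc, so its value depends on how shared reads were divided. The lowest Hist1h2bc library (1616 counts) stood far above the highest Hist1h2ac library (6.61).

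The gap between the most unequal pair is 250 bases long, chromosome 13, 23683949 to 23684198 in GRCm38. Most of it is shown, because a single stretch lies before both genes. The sequence is the stretch upstream of the RefSeq start of Hist1h2ac, chr13:23683960-23684209 in GRCm38.p6, read on the minus strand, so that Hist1h2bc lies to the left, read the other way, and Hist1h2ac to the right. Its first bases lie within Hist1h2bc, and the last bases of the gap, next to the start of Hist1h2ac in the deposited table, are not in it. Capitals mark the histone octamer ATTTGCAT, the box CCAAT and the box TATAAA on either strand.
Hist1h2ac: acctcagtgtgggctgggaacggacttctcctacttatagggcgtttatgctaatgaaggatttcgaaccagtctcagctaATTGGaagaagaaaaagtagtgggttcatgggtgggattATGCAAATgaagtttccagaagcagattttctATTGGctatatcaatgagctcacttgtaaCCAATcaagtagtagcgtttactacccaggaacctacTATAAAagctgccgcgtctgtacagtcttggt
By exact match it holds 1 octamer, 3 CCAAT boxes and 1 TATAAA, the last near the start of Hist1h2ac, the lower of the pair. Variant forms of these motifs were not searched, so a TATA-like element before Hist1h2bc could be missed.

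Over all promoters of the RefSeq table (300 bases around the start, 32851 promoters), ATTTGCAT was present in 1.74% and in 14 of the 62 Hist genes with an entry. CCAAT was present in 37.4% of all and in 53 of the 62, and TATAAA in 13.6% of all and in 35 of the 62. These shares differed by family. The octamer was in 7 of 18 H2A and 7 of 16 H2B genes and in no H1, H3 or H4 gene. CCAAT was in every H1, H2A, H2B and H3 gene with an entry but in 3 of 12 H4 genes. Genes that stand head to head share a stretch, so 1 match can count for both. Of the 14 replacement genes with an entry, 1 held the octamer, 10 CCAAT and 1 TATAAA. The H1 box AAACACA, known from linker histone promoters, was in 7.18% of all promoters and in 5 of the 6 Hist H1 genes. It was also in 2 of 18 Hist H2A genes, 2 of 16 Hist H2B genes and 1 of 14 replacement genes, H3f3a. None of the replacement linker genes H1f0, H1fx, H1foo and H1fnt held it. By level, 6 of 25 measurable and 8 of 37 other Hist genes held the octamer, and 14 of 25 and 21 of 37 held TATAAA. The measurable genes Hist1h2bc, the most abundant Hist gene, Hist2h2be and Hist2h4 had no entry and are not in these counts. Both strands were searched for exact matches, the 4 motifs do not contain each other, and a match is no evidence of binding.

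Genes around histone supply were read from the same fit. Of 25 S-phase genes, those of DNA replication and nucleotide supply, none was called and none had an unadjusted p under 0.05. Over the whole table these shares were 0.721% and 9.55%. The median log2 fold change of the 25 genes was 0.18, with 19 above 0 and 6 below. The replication helicase subunit Mcm2 had 0.43 (adjusted p 0.544), the replication initiator Cdc6 0.54 (0.705), Gins1 0.29 (0.711) and thymidine kinase Tk1 -0.29 (0.688). Of 11 markers of dividing cells none was called, at a median of -0.21, and their summed normalized counts were 132 to 254 in VPA and 131 to 309 in VPA_OCA. Ccnd1, the cyclin of the step into the cell cycle, rose in VPA_OCA by 1.37 on the log2 scale (SE 0.13, adjusted p 5.74e-05), from 1850 to 2893 normalized counts to 5447 to 8086.

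The machinery that makes histone mRNA showed no called gene among 11 measured, where 0.721% were called over the whole table. The median was -0.04, and 1 gene had an unadjusted p under 0.05, against 9.55% over the table. That gene was Slbp, the stem-loop binding protein, at 210 to 239 normalized counts in VPA and 238 to 307 in VPA_OCA, a log2 fold change of 0.21 (SE 0.09, adjusted p 0.480). Npat, the coactivator of histone gene transcription, had -0.11 (0.874), Casp8ap2 0.15 (0.864) and the cleavage factor Cpsf2 -0.08 (0.877).

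Of 24 histone chaperones and exchange factors none was called, 3 had an unadjusted p under 0.05 (9.55% did over the whole table), and the median was -0.06, with 11 above 0 and 13 below. In 2 of the 24 all VPA_OCA values lay above all VPA values, as in 0.916% of all genes. Cenpa, the centromeric H3 variant kept in this list with its chaperone, had 89.4 to 111 normalized counts in VPA and 112 to 162 in VPA_OCA, without overlap (log2 fold change 0.36, adjusted p 0.271). Vps72, a subunit that handles H2A.Z, had 229 to 262 and 265 to 326, also without overlap (0.26, adjusted p 0.272). Hjurp, the chaperone of Cenpa, had 2263 to 3664 normalized counts in VPA and 2471 to 4715 in VPA_OCA. Its mean FPKM was 84.4, against 4.61 for Cenpa and at most 0.864 for the markers of dividing cells. The source of its high level was not tested. The log2 fold change of Hjurp was 0.41 (adjusted p 0.362), which passed only when VPA_OCA replicate 2 was left out (0.54, adjusted p 0.0437). Tonsl, which binds newly made histones, had 0.23 (adjusted p 0.539).

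The table as a whole had 20236900 to 22087711 normalized counts per library, and the 5 hepatocyte markers were high in the libraries, at mean FPKM of 700 to 109558. Muscle transcripts stood out in VPA replicates 4 and 5, where the summed markers were 437 and 103 normalized counts against 5.27 to 22.8 in the others, and no histone count changed its call without those 2 libraries.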

How the data were processed

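RNA from 12 livers, 6 per group, was extracted with Trizol and made into TruSeq libraries, per the labels' protocols. The authors deposited 1 table with normalized counts (a signal per gene, read counts scaled per library) and FPKM for each library, and p-values with adjusted p-values and the GC fraction per gene, per the file headers. The build GRCm38.p5 and edgeR are named in the submitters' processing notes, with aligner, counter, annotation and strand setting not given in the sources used here. Cells written with a decimal comma were 1000 times too large and were divided back. Low values clustered near multiples of 1 step per library without being whole, so no count model was used and the depth in reads is an estimate from that step; floors cover counting error only.

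The 19006 genes with 1 or more normalized counts in 6 or more libraries were fitted with limma 3.58.1 in R 4.3.3, with an intensity trend, on log2(normalized count + 1), two-sided, with Benjamini-Hochberg adjustment over all of them and a threshold of 0.05; the fit was tested on simulated data. Groups came from the sample titles. Libraries with the same number deviated together over 11481 genes in 6 of 6 pairs (r 0.15 to 0.478), so the number was used as a block in an alternative; no label says what it marks. Other alternatives were scaling, pseudocount, filter, trend, array weights, a term for numbers 1 to 3 against 4 to 6, each library left out, VPA replicates 4 and 5 left out, and, added after seeing the data, VPA_OCA replicates 1 and 2 left out and the Hist2h2aa1 and Hist2h2aa2 counts summed. Named were all replacement genes, Hist genes with an unadjusted p under 0.05 or among the 10 highest in FPKM, up to 4 genes of each other list by p, and Ccnd1. The GENCODE M21 annotation held all 82 genes, 80 with the same start and end. The members and lists were chosen with earlier results of these data known.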

Additional observations from a re-analysis of the deposited data

Results flagged for a closer look

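Among 44 sets of 6 values (20 named histone genes and both class sums in each group), 5 had a library whose gap to its nearest neighbour took up more of the range of its group than Dixon's 95% limit for 6 values allows, where chance marks about 1 in 20. In VPA replicate 1, Hist1h2bg had 52.6 normalized counts against 22.1 to 33.4 in the other VPA libraries. In the same library H2afy2 had 24.1 against 8.001 to 13.1. Hist3h2a was low there, at 51.1 against 71.5 to 82.2. Hist2h3c2 had 41.2 in VPA replicate 5 against 16.1 to 25.3, and without that library its log2 fold change was -0.68 (limma, adjusted p 0.323). H3f3b had 4170 in VPA_OCA replicate 1 against 2839 to 3329.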

How the results depend on the processing

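No Hist and no replacement gene was called in any of 26 settings at the threshold of 0.05, nor at 0.10; the smallest adjusted p of a named histone gene was 0.127. Of 20 named histone genes, 9 kept their sign in every alternative (H1f0, H2afv, H3f3b, Hist1h1c, Hist1h4i, Hist2h2aa2, Hist2h2be, Hist2h3c2 and Hist3h2a). Over all genes the count was 223 at a threshold of 0.10, 210 with the replicate block, which changed no histone call, and 404 with the term for the number set, and it was 92 to 146 with 1 library left out. The chaperone list had 0 to 1 called gene with 1 library left out. Measurable Hist genes numbered 59 for any value above 0, 11 for at least 10 in at least 6 libraries and 9 for a mean FPKM of at least 1. The cause was not tested for any change named here, beyond the altered threshold or filter.

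Changes of sign were mostly of small values. H2afx became -0.0043 with median-ratio and -0.0081 with upper-quartile scaling, H1fx -0.0047 with a pseudocount of 0.1 and Hist1h2bc -0.0016 with array weights. Within numbers 1 to 3, H2afx was -0.34, Hist1h2bc -0.0127, Hist2h2aa1 0.26 and Hist1h2bg -0.061. Within numbers 4 to 6, H2afy was 0.0432, H2afj -0.0398, H1fx -0.42 and Hist1h4h -0.0718. Without VPA replicates 4 and 5, H2afy was 0.0367, Hist1h2bc -0.0042, Hist2h2aa1 0.13 and Hist1h2bg -0.0778. Without VPA_OCA replicates 1 and 2, H3f3a was -0.0299, H2afy 0.15, H2afj -0.0517, H2afy2 -0.0549, Hist1h2bc -0.0538, Hist1h4h -0.14 and Casp8ap2 -0.0422. With 1 library left out the ranges were -0.23 to 0.24 for H1fx, -0.0043 to 0.0835 for H2afj, -0.10 to 0.16 for H2afx, -0.18 to 0.0325 for H2afy, -0.0221 to 0.32 for H2afy2, -0.13 to 0.024 for H2afz, -0.0265 to 0.0622 for Hist1h2bc, -0.0541 to 0.29 for Hist1h2bg, -0.0213 to 0.20 for Hist1h4h and -0.13 to 0.0552 for Hist2h2aa1.

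The ratio of summed FPKM, VPA_OCA over VPA, was 1.0017 to 1.15 for Hist and 1.03 to 1.18 for replacement over all alternatives. The 17 measurable Hist genes with a mean under 10 counts had a median SE of 0.44 log2 units.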
